A study of Mus musculus with 2 samples.

Results

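The cytoplasmic ribosomal protein genes are the protein-coding genes for the proteins of the ribosome that works in the cytosol. They were taken by a rule on names: protein-coding symbols of the Rps and Rpl series, with Rpsa, Rplp0, Rplp1 and Rplp2, and without the Rps6k kinases. The rule gave 83 members among 43346 Ensembl genes, of which 32 belong to the small and 51 to the large subunit. Of the members, 6 are paralogs (Rpl3l, Rpl7l1, Rpl10l, Rpl22l1, Rpl39l and Rps27l), close relatives of a main gene, and are reported apart from the other 77. The rule leaves out Fau, Rpl36al and Rack1, which also encode ribosomal components. Rps4l is a pseudogene in the annotation used for names and is no member.

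Total RNA was sequenced in 2 libraries of 1 group, labelled megakaryocyte progenitor cell (CFU-Meg), the bone marrow precursor of the cells that shed platelets. The mice were male C57BL/6J animals of 5 to 6 weeks with no treatment or mutation in the labels, and each library started from 1 ng of RNA. The libraries come from separate biosamples with the same donor identifier, so their spread may be technical. With 1 group there is no contrast between conditions: values are given for both libraries, and all errors are SD with n = 2.

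The depth was 82746658 expected counts for replicate 1 and 75652762 for replicate 2. Mitochondrial genes held 26.8% and 28.8% of them, and Gm42418, a gene that overlaps the ribosomal RNA repeat, 23.4% and 20.8%. The marker genes went against the label. Of 11 megakaryocyte markers, 2 reached 1 TPM (transcript abundance per length, scaled to a fixed total for each library) in both libraries, their sum was 11.8 TPM in replicate 1 and 7.26 TPM in replicate 2, and Tubb1 was listed at 0 in both. The 6 granulocyte markers summed to 15547 and 16061 TPM. The levels below are therefore those of the libraries labelled megakaryocyte progenitor, and which cells contributed them was not tested.

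A ribosome joins a small subunit, which reads the mRNA, to a large subunit, which links the amino acids. Each subunit is built on ribosomal RNA from about equal amounts of its proteins, and in vertebrates nearly all of these come from 1 main gene each. The mRNAs of these genes typically begin with a C followed by a run of pyrimidines, the 5′ terminal oligopyrimidine (TOP) tract, through which their translation follows growth signals. Inherited loss of 1 copy of several of these genes causes Diamond-Blackfan anaemia in people, a failure of red cell formation. The genes have also left many intronless copies across mammalian genomes, most of them processed pseudogenes, which can share sequencing reads with the parent gene.

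The starts of the genes carried this tract in part of the family. RefSeq promoter windows on GRCm38.p6 (250 bases before to 50 bases after the annotated start) were matched by symbol for 63 members, with 75 windows. A tract was counted where the window has a C at the annotated start followed by C and T alone for at least 5 bases in all. Of the 13 windows with one, the 5 with the longest run are shown first, from 13 bases in Rpl15 to 9 in Rps6 and Rps18. Rps27, with a run of 7 bases, follows to set it beside its paralog Rps27l, whose window has no such tract. Each shows 5 bases before the start and 25 bases from it, 5′ to 3′, and the capitals mark the unbroken run of C and T from the start.
Rpl15 (chr14:18270962-18270991, minus strand): gccttCTTCCTTTCCTCTggcggcagccat
Rpl35 (chr2:39005107-39005136, minus strand): ctttcCTCTTTCTCTCgaaccaggctgctt
Rps10 (chr17:27635220-27635249, minus strand): cgcccCTTCCTTTCCagcctccgcctcgga
Rps6 (chr4:86857343-86857372, minus strand): cgggcCTCTTTTTCgtgacgcctcccaggc
Rps18 (chr17:33955641-33955670, minus strand): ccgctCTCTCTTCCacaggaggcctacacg
Rps27 (chr3:90213624-90213653, minus strand): tcgctCCTTTCCggcggtgacgacctccct
Rps27l (chr9:66946081-66946110, plus strand): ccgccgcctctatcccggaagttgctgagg

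A tract that began exactly at the annotated start was present in 13 of 75 member windows (17.3%) and in 2.51% of all 32851 promoter windows. A run of 8 or more C or T anywhere from 25 bases before to 50 bases after the start was present in 68% of member windows and 27.2% of all windows. The annotated start can lie several bases from the true one, and no match says only that these letters are not at that place. Among the motifs searched on both strands, CCGGAAG was in 36% of member windows and 8.86% of all windows, AAGATGGC in 10.7% and 2.75%, GGGCGG in 60% and 35.7%, and TATAAA in 9.33% and 13.6%. The letters CCGGAAG and AAGATGGC can overlap at AAG. Members with the tract at the start had a median of 1081 TPM (n = 13) and the other matched members 823 TPM (n = 50), values that are given without a test since genes are not replicates. The groups also differ in paralogs: all 6, from Rpl10l at 0 to Rpl22l1 at 397 TPM, are among the 50. These low genes pull the lower median down, and the medians were not compared without them.

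The members were among the most abundant transcripts in both libraries. Their median was 966 TPM in replicate 1 and 988 TPM in replicate 2, against 9.16 and 8.71 TPM for the 12352 Ensembl genes that reached 1 TPM in at least 1 library. Together they held 8.55% and 8.73% of all TPM. They took 3.79% of the expected counts in replicate 1 (95% exact binomial interval 3.789 to 3.797) and 3.92% in replicate 2 (3.913 to 3.922), intervals that cover counting error only. The share of TPM is above the share of counts because TPM divides by transcript length. Of the 50 most abundant Ensembl genes 17 were members, of the first 100 there were 47, and of the first 200 there were 73.

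In both libraries, 80 of the 83 members reached 1 TPM, 79 reached 100 TPM and 40 reached 1000 TPM. By mean level, 35 members lay between 1000 and 2000 TPM, 29 between 500 and 1000 TPM, 10 between 100 and 500 TPM, and 5 at or above 2000 TPM. The 3 members under 1 TPM were Rpl3l, Rpl10l and Rpl39l, and Rpl7l1 was alone between 1 and 100 TPM. All 4 are paralogs. The order of the members was nearly the same in both libraries, with a Spearman correlation of 0.995 over 83 genes measured in the same 2 libraries. Level and transcript length were not related among the 77 members that are no paralogs (Spearman correlation -0.007).

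**Figure D1:**
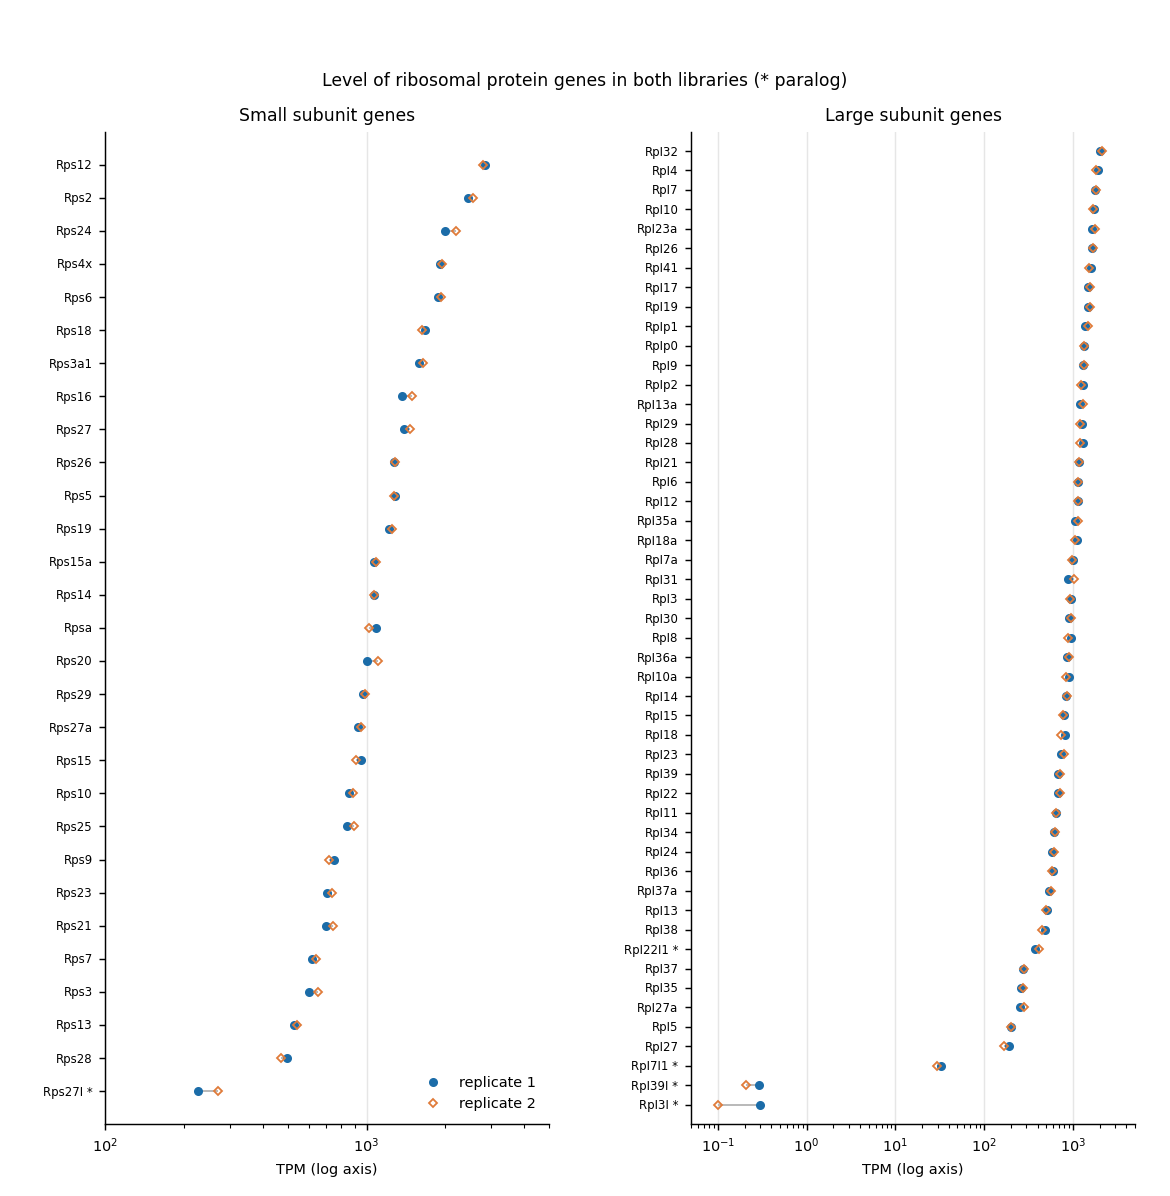
TPM of 79 of the 83 members in replicate 1 (filled circles) and replicate 2 (open diamonds), on a log axis, for the small subunit (left) and the large subunit (right), with paralogs starred. The other members, Rpl10l at 0 in both libraries among them, are not drawn. The axes of the panels have different ranges. The 77 members that are no paralogs lie between 177 and 2807 TPM by mean, and 4 of the 5 large subunit paralogs fall far below them.

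Among small subunit genes, the highest was Rps12 (ENSMUSG00000061983.6, chromosome 10, 23785183 to 23787275, minus strand), with 2830 TPM in replicate 1 and 2784 TPM in replicate 2. Rps2, a protein of the mRNA entry channel, followed with 2454 and 2549 TPM. Rps24, a Diamond-Blackfan gene, had 1993 and 2204 TPM. These levels set Rps12 and Rps2 above every other member in both libraries. Rps4x, the X-linked form of a protein that also has a Y-linked form in people, had 1913 and 1942 TPM.

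The lowest small subunit genes were less far from the rest. Rps28, a small protein near the mRNA exit, had 497 and 471 TPM. Rps13 had 527 and 543 TPM. Rps3, a protein of the mRNA entry channel that also acts in DNA repair, had 602 and 654 TPM, and Rps7 had 617 and 641 TPM. Rps3 and Rps7 overlapped between the libraries, while Rps28 lay below Rps13 in both. A further 22 small subunit members that are no paralogs ran from Rps21 at 720 ± 30 TPM to Rps6, the target of S6 kinase, at 1906 ± 29 TPM. Over the 31 small subunit genes without the paralog, the 90th percentile was 3.28 times the 10th.

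In the large subunit, Rpl32 (ENSMUSG00000057841.3, chromosome 6, 115805505 to 115808747, minus strand) was highest, with 2014 and 2126 TPM. Rpl4, a protein of the peptide exit tunnel, had 1910 and 1841 TPM, Rpl7 had 1780 and 1838 TPM, Rpl10, a late-joining protein near the peptidyl transferase centre, had 1738 and 1706 TPM, and Rpl23a, a protein at the tunnel exit, had 1624 and 1788 TPM. Rpl32 stood above the other large subunit members in both libraries. Rpl4 and Rpl7 were almost level in replicate 2, so their order rests on replicate 1.

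The low end of the large subunit held 5 genes that are no paralogs and lay under 300 TPM in both libraries. Rpl27 (ENSMUSG00000063316.9, chromosome 11, 101442298 to 101445529, plus strand) was the lowest, with 188 and 166 TPM from 6081 and 4902 expected counts. Rpl5 (ENSMUSG00000058558.8, chromosome 5, 107900502 to 107909005, plus strand) had 202 and 200 TPM. Rpl27a had 253 and 283 TPM, Rpl35 had 260 and 278 TPM, and Rpl37 had 272 and 282 TPM. Rpl27a, Rpl35 and Rpl37 overlapped, and Rpl27 and Rpl5 were below them in both libraries. The next gene up that is no paralog, Rpl38, had 481 and 449 TPM. Each of these 5 genes has copies with higher levels, which are described further on.

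The median of the large subunit was below that of the small subunit in each library, 895 against 1078 TPM in replicate 1 and 914 against 1098 TPM in replicate 2. From the mean levels the difference of the medians was -0.23 on the log2 scale, and without the paralogs it was -0.19. The difference was not computed with copies added. Copies exceeded the member for Rpl5, Rpl27a, Rpl27, Rpl35, Rpl38 and Rpl37 of the large subunit and Rps23 of the small. Because the large subunit holds the 5 genes under 300 TPM, its 90th percentile was 4.52 times its 10th without paralogs, against 3.28 times in the small subunit.

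The P stalk is a flexible arm of the large subunit that recruits translation factors, made of Rplp0 and copies of Rplp1 and Rplp2. Its 3 genes were close in level. Rplp1 had 1421 ± 70 TPM, Rplp0 1339 ± 19 TPM and Rplp2 1262 ± 38 TPM. This order held in both libraries.

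Rpl5 and Rpl11 form, with 5S ribosomal RNA, the particle that also binds and holds back Mdm2, the inhibitor of p53. Their deposited levels were unequal. Rpl11 had 647 and 650 TPM and Rpl5 had 202 and 200 TPM. With the TPM of their copies added, Rpl5 summed to 1706 ± 81 TPM and Rpl11 to 1127 ± 38 TPM, the reverse order. The TPM of a copy is scaled to its own length, 1019 bases for Gm15500 against 2045 for the leading transcript of Rpl5. These sums are therefore not the levels that the copies' reads would give at the member's length, where the order was not tested.

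All 17 genes of the Diamond-Blackfan list exceeded 100 TPM in both libraries, as did all 77 members that are no paralogs. The count is thus no trait of the list. The list's median was 872 TPM, beside 1055 TPM for those 77 members. The genes found most often in patients spanned the range: Rps19 had 1235 ± 22 TPM, Rps26 1280 ± 6 TPM, Rpl11 649 ± 2 TPM and Rpl5 201 ± 1 TPM. Above them were Rps24 at 2099 ± 149 TPM, Rpl26 at 1649 ± 37 TPM and Rps27 at 1430 ± 57 TPM. Rpl35a had 1093 ± 51 TPM, Rps29 977 ± 16 TPM, Rps10 872 ± 22 TPM, Rpl15 778 ± 19 TPM, Rpl18 777 ± 47 TPM and Rps7 629 ± 17 TPM. Below these lay Rps28 at 484 ± 18 TPM, Rpl35 at 269 ± 12 TPM and Rpl27 at 177 ± 15 TPM, with Rpl27 the lowest of the list and Rpl5 next to it. The list thus held members from the third highest to the lowest that is no paralog.

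The paralogs split into silent and active genes. Rpl10l, known from male germ cells, was listed with no expected count in either library. The level that 3 counts would give, 0.0546 TPM for replicate 1 and 0.0586 TPM for replicate 2, is the upper limit. Rpl10, with 1722 ± 23 TPM, was at least 31826-fold higher in replicate 1 and at least 29084-fold higher in replicate 2. Rpl3l, the form of heart and skeletal muscle, had 0.30 and 0.10 TPM from 15 and 5 counts, against 944 and 927 TPM for Rpl3. Rpl39l, best known from testis, had 0.29 and 0.21 TPM from 12 and 7 counts, against 675 and 713 TPM for Rpl39. These 3 paralogs were the only members with a wide deposited credibility interval (wider than 0.5 of the posterior mean), each from at most 15 counts.

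The other 3 paralogs were clearly expressed. Rpl7l1, a relative of Rpl7 with a role in pre-ribosome assembly, had 32.8 and 29.2 TPM against 1780 and 1838 TPM for Rpl7. Rps27l, a target of p53, had 226 and 269 TPM against 1389 and 1470 TPM for Rps27, which was 5.77-fold higher by mean. Rpl22l1, whose transcript Rpl22 protein is known to repress, had 376 and 418 TPM against 672 and 709 TPM for Rpl22. The log2 difference of Rpl22l1 from Rpl22 was -0.80 ± 0.05, the smallest among the paralog members, and in each pair the main gene was higher in both libraries. Outside the rule, Rpl36al had 426 and 462 TPM against 857 and 914 TPM for Rpl36a, and Rps4l had 4.24 and 4.86 TPM against 1913 and 1942 TPM for Rps4x.

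The paralog pairs were alike in coding sequence but had no long identical stretch in common. None of the 82 members whose leading transcript is in GENCODE M21 had a window of 50 bases of it in common with another member. The leading transcript of Rpl13a could not be matched there. Between coding sequences, identity ran from 61.8% for Rpl7 and Rpl7l1 to 85.0% for Rpl39 and Rpl39l, with the longest identical stretch at 38 bases. A different case is Rps27rt (chromosome 9, 114982366 to 114982739, minus strand), an intronless copy that is annotated as protein coding and whose name the rule does not take. The first 60 coding bases (GENCODE M21 transcripts) are shown to set the identical copy beside the paralog that differs. Capitals mark the bases of Rps27l that differ from Rps27, of which there are 18 in this stretch and 60 over the whole of the 252 coding bases.
Rps27: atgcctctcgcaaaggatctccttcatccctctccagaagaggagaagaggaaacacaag
Rps27l: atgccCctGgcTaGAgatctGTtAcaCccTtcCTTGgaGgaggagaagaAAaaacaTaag
Rps27rt: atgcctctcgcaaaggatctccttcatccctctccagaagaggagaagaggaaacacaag

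The coding sequences of Rps27 and Rps27rt were identical over all 252 bases, so reads from inside them fit both genes. The deposited values gave Rps27rt 310 and 361 TPM. Rps27 with this copy had 1765 ± 93 TPM. How the true level divides between Rps27 and Rps27rt cannot be told from these tables.

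Copies of this kind were sought by shared sequence with the GENCODE M21 transcripts of the members. A gene outside the member's locus was taken as a copy when at least 50% of its windows of 50 bases occur in transcripts of a member. There were 176 copies of 63 members, of which 162 are annotated as pseudogenes and 9 as protein coding. The deposited tables gave the copies 19.8 ± 0.6 TPM for every 100 TPM of the members. Of the copies, 33 reached 100 TPM in both libraries and 16 were at a count of 0 in each library. The set by name, 255 genes whose symbol is a member's followed by -ps, accounted for 9.35 ± 0.18 TPM per 100 TPM of the members.

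For 7 members the copies summed to more than the member itself in both libraries: Rpl5, Rpl27a, Rpl27, Rpl35, Rps23, Rpl38 and Rpl37. The 5 lowest members that are no paralogs are all among them. The copy Gm15500 (chromosome 7, 114705217 to 114706235, minus strand), a processed pseudogene, had 1443 and 1558 TPM, and its mean was 7.48 times that of Rpl5. All of its windows of 50 bases occur in Rpl5. The first 60 coding bases of Rpl5, found without a difference in Gm15500, are shown as an example of the sequence in common.
Rpl5 and Gm15500: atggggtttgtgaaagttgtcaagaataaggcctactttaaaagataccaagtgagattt

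The leading transcript of Rpl5 in these tables was 2045 bases long, against 1019 bases for Gm15500 and 891 bases for the coding sequence. The copy held 74141 expected counts in replicate 1 and Rpl5 18544. Similar pairs were Gm7536 with 1305 ± 74 TPM beside Rpl27a with 268 ± 21 TPM, and Gm2000, annotated as protein coding, with 679 ± 23 TPM beside Rpl35. Gm11518, a copy of Rpl27, had 446 ± 25 TPM, Rpl38-ps2 had 666 ± 134 TPM beside Rpl38 at 465 ± 22 TPM, and Rpl37rt had 322 ± 10 TPM beside Rpl37. Rps23 was not a low gene, with 708 and 739 TPM, yet Rps23-ps1 had 1189 and 1188 TPM. In these 7 cases the deposited level of the member is the lower part of the total, and reads from the sequence in common fit the member and its copy alike.

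**Figure D2:**
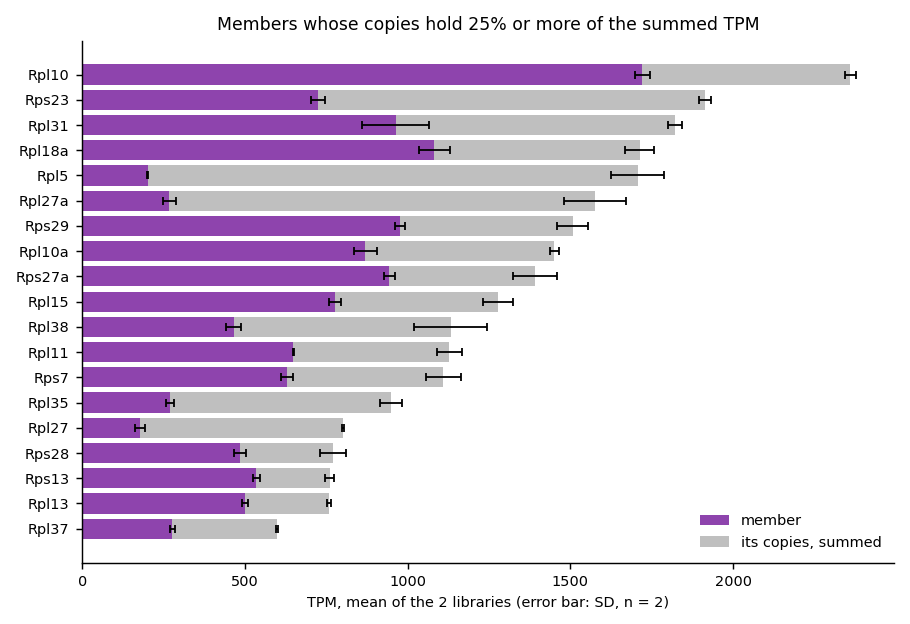
TPM of the 19 members whose copies held 25% or more of the sum of member and copies. Each bar is the mean of the 2 libraries, split into the member (purple) and its copies (grey), and error bars show the SD (n = 2) of the member and of the sum. Rpl5 and Rpl27a change most, from 201 to 1706 TPM and from 268 to 1576 TPM. The TPM of each copy is scaled to the copy's own length.

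Adding the TPM of the copies to each member gave sums that were more alike than the members' own levels. Over the 79 members at 100 TPM or more, the 90th percentile was 3.80 times the 10th for the members alone and 2.74 times with their copies. The SD of log2 TPM went from 0.84 to 0.64. With copies, the lowest was Rps27l, at 248 TPM, for which the rule found no copy. The TPM of a copy is scaled to the copy's own length, which can be shorter than the member's. The sum is thus not the level that the copies' reads would give at the member's length. How much of the smaller spread comes from these lengths was not tested. Reading the sum as the member's level also assumes that all reads of the copies come from the member, which the tables cannot show.

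The deposited credibility intervals were narrow even where sharing was extensive. For each member at 100 TPM or more the wider interval of the 2 libraries was taken. It spanned 2.55% of the posterior mean at the median and between 1.07% and 10.7%. Of the members at 100 TPM or more, 48 of 78 with a value had 50% or more of their windows in another gene. The width of the interval, as the mean of the 2 libraries, was unrelated to that share (Spearman correlation -0.016, n = 78). Rpl27 had the widest among them, with bounds of 178 and 195 TPM in replicate 1 and of 156 and 173 TPM in replicate 2, and Rpl38 followed. The deposited bounds belong to the posterior mean, which lay below the TPM by 1.60% and 1.69% at the median, and the TPM of 57 members in replicate 1 and of 58 in replicate 2 was above its own upper bound. Some copies were less certain than their parent: the interval of Rpl15-ps3 was 1.23 times its posterior mean in replicate 1 and 1.68 times in replicate 2, while that of Rpl15 was 0.037 and 0.038 times.

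The 2 libraries were compared by the ratio of their expected counts after TMM scaling, for the 12352 genes that reached 1 TPM in at least 1 library, 80 members among them. With 1 library on each side there is no test, and a ratio past 1.5-fold in either direction was counted. None of the 80 members passed 1.5-fold, while 15.3% of all 12352 genes did. Among the 664 genes with a mean of 100 TPM or more the share was 1.36%, which is the background at the members' level. The 79 members at that level had an SD of 0.080 for their log2 ratios and a median size of 0.082, against 0.299 and 0.117 for the 585 other genes.

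Of the 79 members, 63 were higher in replicate 2, beside 73.5% of all genes at 100 TPM or more, a share close to that background. The median log2 ratio was 0.08 for the members and 0.09 for all genes at that level. The counting interval of the ratio left out equality for 69 of the 80 members, beside 66.0% of all 12352 genes and 84.3% of the genes at 100 TPM or more, so the members' count is close to the background at their level. At this depth even differences of a few percent exceed counting error, which is not the spread between samples.

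**Figure D3:**
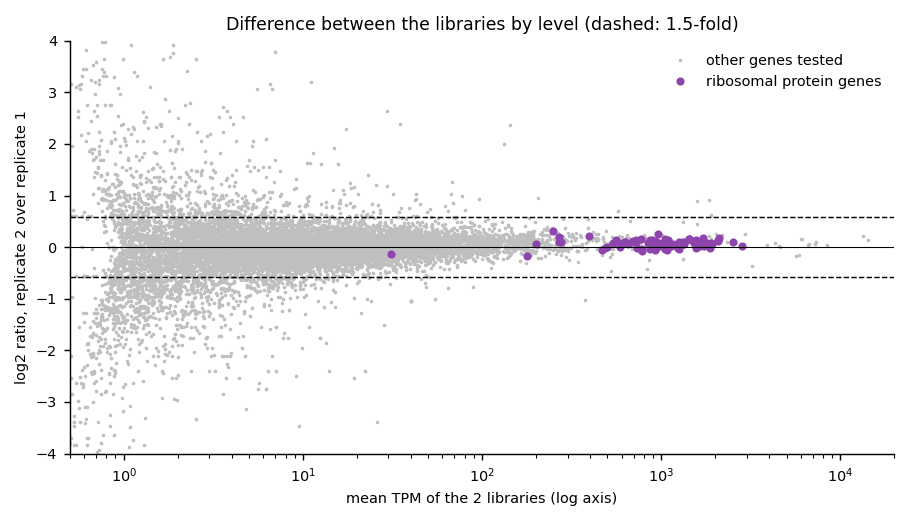
Log2 ratio of replicate 2 over replicate 1 against mean TPM (log axis) for all genes tested (grey) and the ribosomal protein genes (purple), with dashed lines at 1.5-fold and 45 genes outside the plotted range. The members lie between the dashed lines, from -0.17 for Rpl27 to 0.31 for Rps27l.

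The 3 largest ratios in each direction were those of 3 paralogs and of Rpl31, Rpl27 and Rpl18. The last 3 have copies, as do 63 of the 83 members. Ratios toward replicate 2 were larger: Rpl27a, not among these genes, was 1.15-fold higher there. Rps27l was 1.24-fold higher in replicate 2, with 226 and 269 TPM. Rpl31 was 1.19-fold higher, with 890 and 1035 TPM, and Rpl22l1 was 1.16-fold higher. The copy of Rpl31, Rpl31-ps8, went the other way, with 946 and 771 TPM, and Rpl31 with its copies had 1836 and 1806 TPM. In the other direction, Rpl27 was 1.12-fold higher in replicate 1, Rpl7l1 was 1.09-fold higher and Rpl18, with 810 and 744 TPM, was 1.06-fold higher. The copies of Rpl27 had 615 and 633 TPM, which brought the sum to 803 and 799 TPM. Both Rpl31 and Rpl27 therefore differed less between the libraries once their copies were counted with them. Adding copies did not do this for every gene named here: Rpl18 with its copies had 840 and 773 TPM, and Rpl22l1 went from 376 and 418 TPM alone to 388 and 432 TPM with its copy. Rps27l had no copy by the rule.

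Other genes of protein synthesis had lower medians. The 77 mitochondrial ribosomal protein genes, which serve the separate ribosome inside mitochondria, had a median of 28.6 TPM and ranged from 5.00 TPM (Mrpl11) to 118 TPM (Mrpl30). The 90th percentile of that list was 4.73 times its 10th, beside 3.52 times for the 77 members that are no paralogs. The 37 translation factors had a median of 108 TPM, and the ratio of their percentiles was 10.5. Eef1a1, which brings aminoacyl-tRNA to the ribosome, had 8446 ± 19 TPM, above any member, while Eif5b had 19.4 TPM. The 39 genes of ribosome biogenesis and RNA polymerase I had a median of 24.1 TPM and a ratio of 12.0, from Taf1c at 2.41 TPM to Npm1, a nucleolar chaperone, at 1218 TPM.

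The coefficient of variation between the libraries was 3.12% at the median for the members, 8.82% for the mitochondrial list, 3.94% for translation factors and 5.95% for the biogenesis list. The lists also differ in level, as given above, and the part of level in this spread was not tested. The 3 ribosomal components outside the rule had levels within the range of the members: Rack1 had 1270 ± 4 TPM, Fau 582 ± 3 TPM and Rpl36al 444 ± 26 TPM. Mpo, the granule enzyme of the granulocyte lineage, had 5892 ± 586 TPM, higher than every member.

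**Figure D4:**
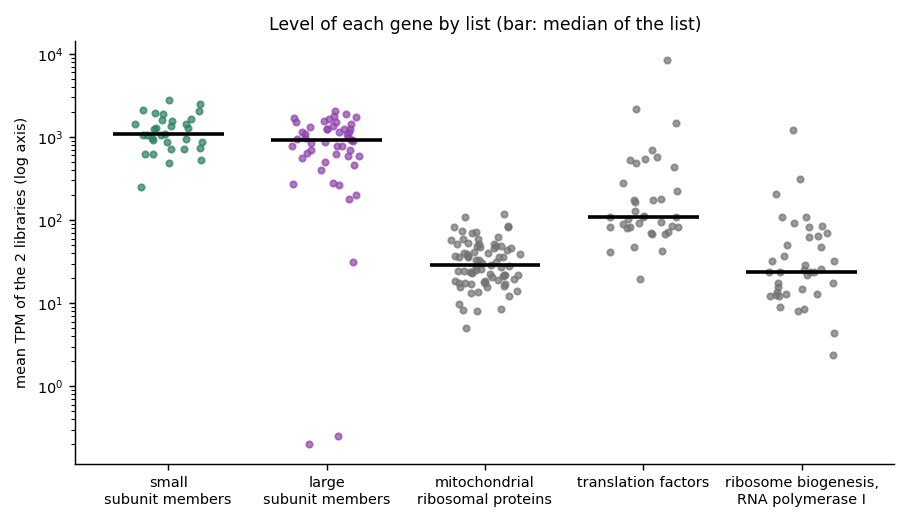
Mean TPM of each gene on a log axis for the small and large subunit members and for 3 other lists of protein synthesis genes, with a bar at each list's median and Rpl10l, at 0, left out of the points. The subunit medians stand at 1074 and 917 TPM, above those of the mitochondrial ribosomal proteins (28.6 TPM), the translation factors (108 TPM) and the biogenesis genes (24.1 TPM).

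Transcripts annotated as protein coding took 89.2% ± 0.3 of the members' TPM, over 371 transcripts. Retained intron transcripts took 5.19% ± 0.15, processed transcripts without a coding sequence 3.61% ± 0.03, and transcripts marked for nonsense-mediated decay 1.05% ± 0.04. The leading transcript was the same in both libraries for all 82 members with reads, and for 49 it took 90% or more of the gene's TPM in both. However, 22 members have only 1 annotated transcript. Those of them with reads are counted in the 82 and in the 49, and could give no other result. For 74 members the leading transcript was annotated as protein coding. The types are those of a later release of the annotation than the one used for the counts.

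In the other 8 members the leading transcript had another type or, for Rpl13a, no type in the later release. For Rps20, a protein of the small subunit head, 97.6% ± 0.2 of the TPM went to transcripts that are not annotated as protein coding, led by a retained intron transcript. For Rpl35 the share was 92.4% ± 2.1 and for Rps16 88.1% ± 2.7. Rpl23, Rpl22l1 and Rps18 were led by processed transcripts, with shares of 78.3%, 77.6% and 65.1%. Rpl12 was led by a transcript marked for nonsense-mediated decay (share 69.7%), and the leading transcript of Rpl13a was not in the later release. For these members most of the gene's TPM was thus not assigned to a transcript with a protein-coding annotation.

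**Figure D5:**
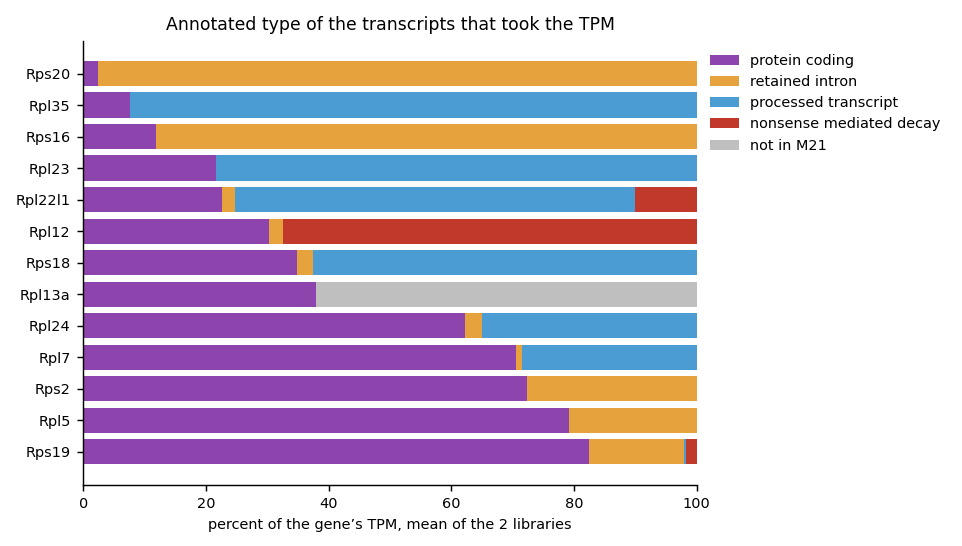
Percent of the gene's TPM by annotated transcript type, as the mean of the 2 libraries, for 13 of the 14 members with 15% or more outside protein-coding transcripts. That share includes transcripts that are not in the later release, as for Rpl13a. Rps20, Rpl35 and Rps16 have the smallest protein-coding share.

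The division among transcripts was steady between the libraries. The leading share moved by under 5 percentage points for 72 members. These include the members with reads and only 1 annotated transcript, whose share cannot move. It moved most for Rpl39l (100% and 63.2%) and Rpl3l (77.0% and 100%), whose shares rest on at most 15 counts. Rpl24, a protein at the interface of the subunits, came next, with 68.7% in replicate 1 and 55.9% in replicate 2, and its total of 577 and 607 TPM differed far less.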

How the data were processed

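Total RNA of 2 libraries of 1 group was used. Each library was aligned to mm10 and quantified on its own against GENCODE M4, per the deposited file lists. Not given in the sources used here are the aligner, quantifier, strand setting and read layout. Per the file headers, the values are deposited expected counts (estimated reads per gene or transcript, shared reads divided), TPM from the authors, score columns holding the authors' bounds of a credibility interval, and the deposited percent of a gene's TPM per transcript. Abundant mitochondrial and ribosomal RNA lowers the TPM of all other genes, since the total is fixed. Names, types and positions came from GENCODE M21 on GRCm38, promoters from RefSeq on GRCm38.p6. Protein sequences were not used here, and paralogs were compared by coding sequence.

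Expected counts were rounded for ratios only (edgeR 4.0.16 TMM scaling, prior count 2, genes at 1 TPM or more in at least 1 library). The script was tested on simulated data. No p-value was computed, since there is 1 group. The binomial intervals describe counting error alone: reads are not independent molecules after PCR. The members, lists, paralog pairs and naming rule (the 5 highest and 5 lowest of each subunit, all paralogs, the 3 largest ratios each way, the 5 widest intervals and the 3 least even isoforms) were chosen with earlier results of these data known. A few genes that these rules take are not reported here. The rule for copies, the further alternatives with copies and the 25% and 15% limits of the plots were chosen after seeing the values. Alternatives were the posterior mean TPM, each library alone, DESeq2 1.42.0 size factors, library totals, other filters and folds, and sets without paralogs.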

Additional observations from a re-analysis of the deposited data

How the results depend on the processing

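No paired analysis was possible because there is 1 group. A value counted as unmoved when it stayed within the spread between the libraries. For counts the limit was 1.5 times, and for the ratio between the libraries its 95% binomial interval. This held in 43 of 61 comparisons with an alternative, and no direction reversed. The tally does not measure robustness, since some comparisons could hardly fail. A mean of the 2 libraries lies within that spread of each library alone by arithmetic. With no tested member past 1.5-fold, none could pass a higher fold. The median of the members, 977 TPM by mean, was 961 TPM from the posterior mean and 1025 TPM without the tissue-restricted paralogs. The difference of the subunit medians, -0.23 (log2), was -0.19 without paralogs and lay between -0.269 and -0.266 in each library alone, where other genes are the middle ones. The ratio of the 90th to the 10th percentile, 6.62 for all 83 members, was 3.96 without members under 1 TPM, 7.16 without those whose leading transcript is shorter than 500 bases, 3.03 with copies added and 2.78 with both changes. The members' share of the counts, 3.86%, was 7.69% without the mitochondrial rows and Gm42418 in the total and 4.37% with the reads of the copies. The median log2 ratio of the members between the libraries, 0.08, was 0.065 with library totals, 0.077 without the filter on low values and 0.036 as a ratio of TPM + 1. For all genes at 100 TPM or more the same scalings gave 0.086, 0.071 with library totals and 0.045 as a ratio of TPM + 1. Without the filter on low values 1 member passed 1.5-fold between the libraries, Rpl3l, from 15 and 5 counts. The TPM of named pseudogenes per 100 TPM of the members, 9.35, was 9.16 from the posterior mean and 19.8 with all copies found by sequence. The limit at this depth is a count of 3 for Rpl10l.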

Other observations

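Ribosomal protein genes carry small nucleolar RNA genes in their introns, which guide the modification of ribosomal RNA. Within the members, 30 genes contained 58 annotated small nucleolar RNA genes, and these took 351 and 302 expected counts in all, beside 3138692 and 2963705 for the members. The labels give size ranges of 149 to 512 and 157 to 497 for the libraries.

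The members were spread over 19 chromosomes, with 14 on chromosome 7 and 8 on chromosome 17.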
